A study of Mus musculus with 4 samples.

Results

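Cell cycle and proliferation genes were examined in the lungs of mice with a mutant type I interferon receptor chain. The 40 genes were chosen by symbol in the unfiltered table of log2 CPM (gene reads scaled to the library total); each symbol matched 1 Ensembl ID, so that 40 of 46603 IDs are described. Of these, 16 act at the entry into or during S phase and 24 act in G2 and mitosis. The 2 SA samples carried Ifnar1 S526A, a receptor chain with alanine in place of 1 serine, and the 2 WT samples were wild-type littermates. All mice were of the C57BL/6 background and 6 to 8 weeks old. All of them, WT included, received 100 µl of medium conditioned by B16F10 melanoma cells by intravenous injection, 3 times a week for 3 weeks. Untreated lungs were not analysed here, and every comparison is between genotypes under conditioned medium.

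Cells that divide copy their DNA in S phase and separate the copies in mitosis. E2F factors drive the S phase genes once cyclin-dependent kinases inactivate the retinoblastoma protein family. The mitotic genes follow later, under the MuvB complex with B-MYB and FOXM1, and their promoters typically hold a cell cycle homology region (CHR) and CCAAT boxes bound by NF-Y. Most cells of the adult lung are quiescent, so transcripts of these genes come mainly from a small dividing share, and type I interferon is known to slow division in many cell types.

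The promoters of the 4 members at an unadjusted p under 0.05 in limma between genotypes are printed to show these elements. These were 4 of 40 members, all higher in SA, where the same threshold took 16.8% of all genes upward and 9.56% downward. The members thus did not reach it more often than genes at large. Each window runs from 250 bases before to 50 bases after the start in the RefSeq table for GRCm38.p6. Capitals mark the CHR letters TTTGAA or TTTAAA, the letters CCAAT, and the E2F-type letters TTTCCCGC, TTTGGCGC, TTCCCGC or TTGGCGC, each searched on both strands. The E2F-type motifs overlap each other by construction. Mcm5 and Ccne1 belong to the S phase set, and Plk1 and Kif11 to the mitotic set.
Mcm5, chr8:75109259-75109558, plus strand: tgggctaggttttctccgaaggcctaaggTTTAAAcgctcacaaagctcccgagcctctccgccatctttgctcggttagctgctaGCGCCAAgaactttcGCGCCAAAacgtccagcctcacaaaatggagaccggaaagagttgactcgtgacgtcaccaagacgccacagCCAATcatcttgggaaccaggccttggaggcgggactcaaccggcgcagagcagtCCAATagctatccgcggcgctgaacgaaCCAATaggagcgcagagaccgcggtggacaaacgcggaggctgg
Ccne1, chr7:38107441-38107740, minus strand: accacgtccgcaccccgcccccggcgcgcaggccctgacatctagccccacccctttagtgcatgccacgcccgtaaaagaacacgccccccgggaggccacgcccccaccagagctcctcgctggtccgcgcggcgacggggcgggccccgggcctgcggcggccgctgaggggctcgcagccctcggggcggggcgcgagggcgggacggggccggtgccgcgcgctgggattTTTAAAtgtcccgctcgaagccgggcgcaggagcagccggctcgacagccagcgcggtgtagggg
Plk1, chr7:122159185-122159484, plus strand: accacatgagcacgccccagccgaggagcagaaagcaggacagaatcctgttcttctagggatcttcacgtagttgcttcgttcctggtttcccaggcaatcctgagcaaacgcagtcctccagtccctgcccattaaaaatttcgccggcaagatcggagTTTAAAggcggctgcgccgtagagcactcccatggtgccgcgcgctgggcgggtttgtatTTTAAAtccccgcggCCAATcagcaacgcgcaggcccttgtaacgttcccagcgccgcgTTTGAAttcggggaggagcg
Kif11, chr19:37376132-37376431, plus strand: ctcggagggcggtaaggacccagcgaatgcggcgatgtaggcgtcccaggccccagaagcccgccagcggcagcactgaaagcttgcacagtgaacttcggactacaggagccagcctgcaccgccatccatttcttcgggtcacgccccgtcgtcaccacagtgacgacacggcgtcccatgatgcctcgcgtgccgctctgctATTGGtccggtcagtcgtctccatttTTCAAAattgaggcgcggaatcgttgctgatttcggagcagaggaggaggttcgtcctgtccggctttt
In Plk1 a TTTGAA began 30 bases after the start and a CCAAT 14 bases before it. In Mcm5 an E2F-type TTTGGCGC lay on the opposite strand, 149 bases before the start.

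The promoter table held 33 of the 40 members. Of the 20 promoters of 19 mitotic members, 18 (90.0%) held a CHR, 18 held CCAAT and 17 (85.0%) held both. In the 15 promoters of 14 S phase members, 5 (33.3%) held a CHR and 3 (20.0%) held a CHR and CCAAT. Among the 13839 promoters of all genes fitted, 19.6% held a CHR and 7.46% held both; among all 32851 promoters the shares were 27.6% and 10.7%. E2F-type letters showed the opposite order. They were in 8 of 15 S phase promoters (53.3%) and 3 of 20 mitotic promoters (15.0%), against 11.1% of the promoters of all genes fitted and 6.81% of all promoters. The members thus differ by phase in sequence, whatever their levels in these lungs. A match describes the letters in the window and is not evidence that a factor binds there.

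The libraries held 27381916 and 38378936 gene reads in SA 1 and SA 2, against 30611946 and 31645038 in WT 1 and WT 2, so that 3 reads correspond to 0.0782 to 0.11 CPM. That floor covers counting error only, since PCR copies were not told apart by molecular identifiers. Lung identity was clear, as the 9 lung epithelial markers summed to 54600 and 46100 CPM in SA libraries and to 50500 and 45000 CPM in WT libraries. Markers of heart muscle were higher in both SA libraries and also differed within each genotype; the 8 cardiac markers summed to 1320 and 2340 CPM in SA and to 421 and 784 CPM in WT. The 8 skeletal muscle markers summed to 2350 and 3370 CPM in SA and to 1050 and 1360 CPM in WT. The 6 ciliated cell markers summed to 547 and 563 CPM in SA and to 269 and 328 CPM in WT. All 6 were higher in SA at an unadjusted p under 0.05 in limma, where 16.8% of all genes were. Dynlrb2 was past the threshold after adjustment (adjusted p = 0.0498), as were 0.163% of all genes upward. The 6 endothelial markers summed to 2860 and 2420 CPM in SA and to 3640 and 3170 CPM in WT. Their part in the results on cell cycle genes was not tested. Ifnar1 mRNA was at 6.22 and 6.03 log2 CPM in SA and at 6.09 and 6.14 in WT, and as a point mutation can leave the mRNA level as it is, this does not check the labels. The design text calls the samples biological replicates; as the animals are not numbered, p-values reflect the spread among these 4 samples. No exact permutation of 2 against 2 samples can pass 0.05 (the smallest two-sided p is 0.333), and the tests rest on the limma model across 15996 genes with a mean of at least 0 log2 CPM, which included all 40 members.

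No member passed the test between SA and WT lungs. In limma with Benjamini-Hochberg adjustment over all genes fitted, 0 of 40 passed at 0.05 in either direction, where 0.163% of all genes (26) were called higher and 0.138% (22) lower in SA. Median centring moved those counts to 210 and 393, and quantile normalization to 114 and 170. At an unadjusted p under 0.05, 4 members were higher in SA, namely Ccne1, Mcm5, Kif11 and Plk1, and 0 were lower; the same threshold took 16.8% of all genes upward and 9.56% downward. With voom on the recovered reads 0 members passed as well, with 5 at an unadjusted p under 0.05 when scaled to library totals and 2 when scaled by the median of ratios. The 95% intervals bound what could have been missed only under the scaling as deposited, since other scalings shift the differences. For 38 of the 40 members the whole interval lay within a 2-fold change either way, that is between -1 and 1 on the log2 scale, as it did for 82.5% of all genes. The 2 exceptions were Ccne1 and Plk1, whose intervals reached 1.28 and 1.46. In bulk tissue a different number of dividing cells and a different amount of these RNAs per cell cannot be told apart.

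The members lay slightly toward SA in the log2 CPM as deposited, and this lean depended on the scaling. The median difference (SA minus WT, log2) was 0.12 over the 16 S phase genes and 0.15 over the 24 mitotic genes, against 0.07 over all genes. Of the 40, 31 (77.5%) had a difference above 0, against 62.0% of all genes. Both SA libraries were above both WT libraries for 21 members (52.5%), where 38.1% of all genes showed this, and below them for 3 members (7.5%), where 21.7% did. Median centring lowered all differences by 0.133, and then 7 members (17.5%) lay above and 7 below, against 20.4% and 37.3% of all genes. With quantile normalization 5 members (12.5%) lay above and 11 (27.5%) below, against 23.7% and 31.6% of all genes. Relative to the median of all genes, the S phase median was 0.0485 higher and the mitotic median 0.0757 higher as deposited and with median centring, whereas with quantile normalization these distances were -0.009 and -0.0466.

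**Figure D1:**
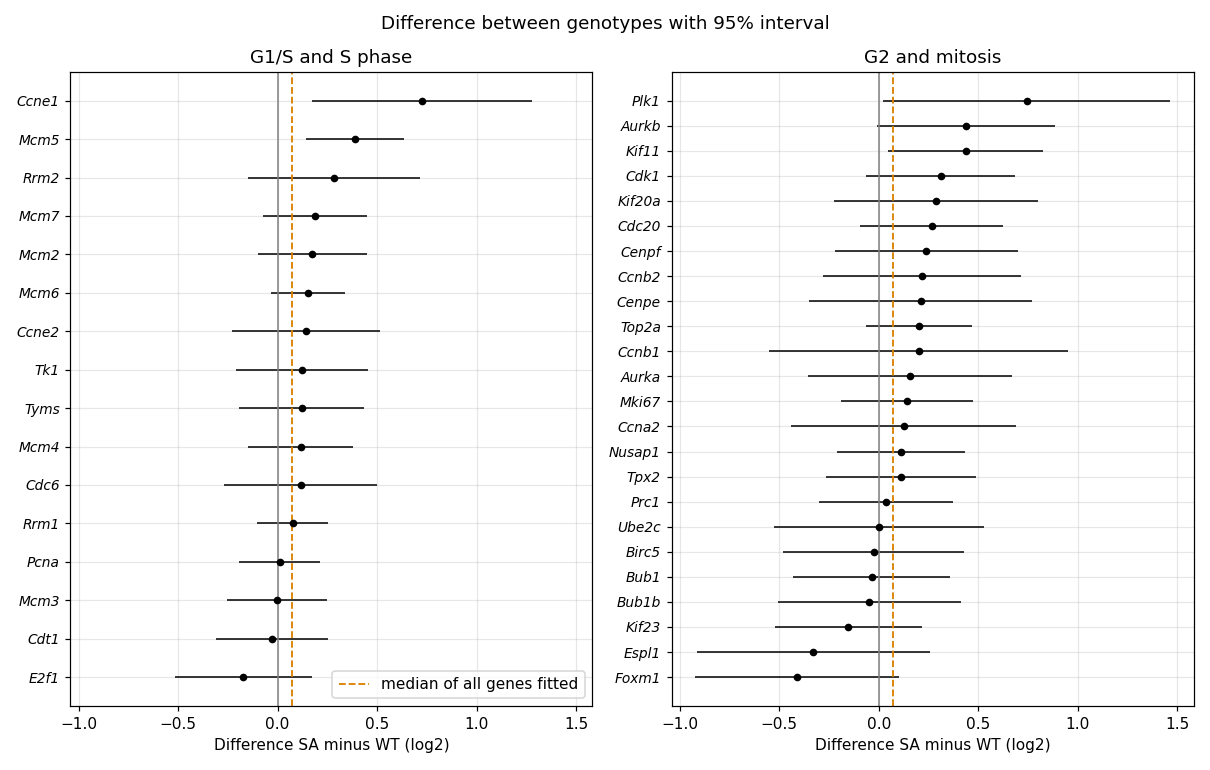
Difference SA minus WT (log2) of each member, with points for the limma estimate and bars for its 95% interval, S phase genes on the left and mitotic genes on the right. The dashed line is the median of all genes fitted (0.07); all intervals but those of Ccne1, Mcm5, Plk1 and Kif11 cross 0.

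The size of the mitotic median rested on single libraries. SA 2 was above SA 1 for 5 of the 24 mitotic genes, with a median step of -0.0575, whereas WT 2 was above WT 1 for 18 of 24, with a median step of 0.19. Over all genes these steps were -0.0053 in SA and -0.0026 in WT. Their mean level was 2.24 and 2.16 log2 CPM in SA 1 and SA 2, against 1.99 and 2.13 in WT 1 and WT 2, so WT 1 alone stood low. Without WT 1 the mitotic median difference was 0.0701, beside that of all genes in the same fit (0.0707), and without WT 2 it was 0.26. Without SA 1 it was 0.0945. The S phase genes did not show this step between the WT libraries, with a median step of -0.0104 and 7 of 16 genes higher in WT 2. Their mean level was 3.57 and 3.50 in SA 1 and SA 2, against 3.39 and 3.38 in WT 1 and WT 2. Their median difference was 0.12 without WT 1 and 0.13 without WT 2.

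**Figure D2:**
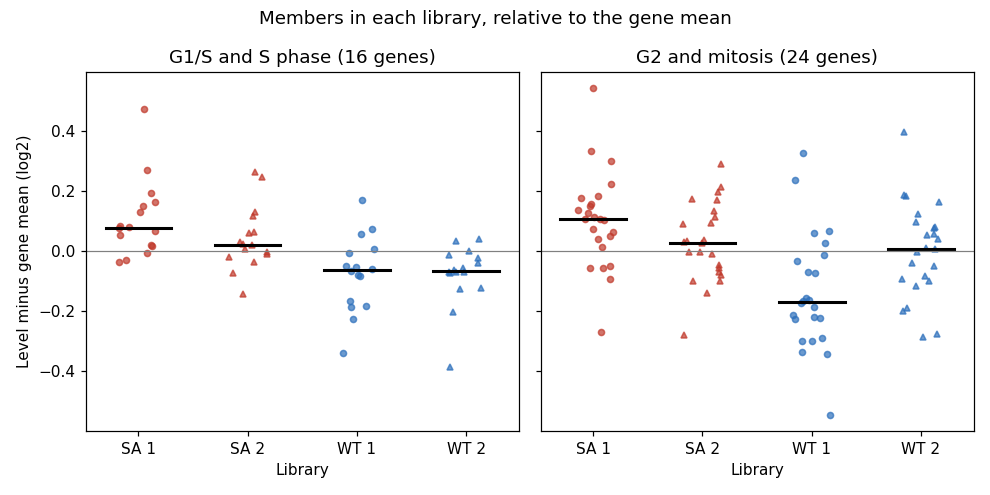
Each point is 1 member in 1 library, as its log2 CPM minus the mean of that gene over the 4 libraries, with S phase genes on the left and mitotic genes on the right; black lines are medians. The mitotic genes sit low in WT 1, while WT 2 lies near SA 2.

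Markers of lymphocytes also differed between these libraries. The 5 B cell markers in the table summed to 48.1 and 57.9 CPM in SA 1 and SA 2, against 28.8 and 67.9 CPM in WT 1 and WT 2, so they were lowest in WT 1 as well. All 5 were higher in WT 2 than in WT 1, by a median of 1.29. The 7 T cell markers summed to 20.6 CPM in each SA library, against 13.6 and 15.2 CPM in WT, and the 6 NK cell markers to 24.4 and 19.7 CPM in SA, against 14.4 and 13.6 CPM in WT. For the 6 plasma cell markers the sums were 394 and 409 CPM in SA and 250 and 328 CPM in WT. No gene of these 4 lists passed the test in limma. At an unadjusted p under 0.05, 4 of 6 fitted T cell genes (66.7%) and 3 of 5 fitted NK cell genes (60.0%) were higher in SA. The same threshold took 0 B cell and 0 plasma cell genes, and 16.8% of all genes upward. The part of these markers in the levels of the cell cycle genes was not tested. The 7 thymocyte markers summed to 43.9 and 55.6 CPM in SA and to 30.1 and 34.9 CPM in WT, with 4 of them, Rag1, Rag2, Dntt and Ptcra, at 3 reads or fewer in every library. The 7 melanocyte and melanoma markers summed to 29.7 and 34.5 CPM in SA and to 36.3 and 29.9 CPM in WT. Of these, Tyr and Tyrp1, for enzymes of pigment synthesis, had at most 3 reads in any library, while Mlana had 47 to 58, Pmel 28 to 37 and Mitf, which other cell types also express, 696 to 1178.

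**Figure D3:**
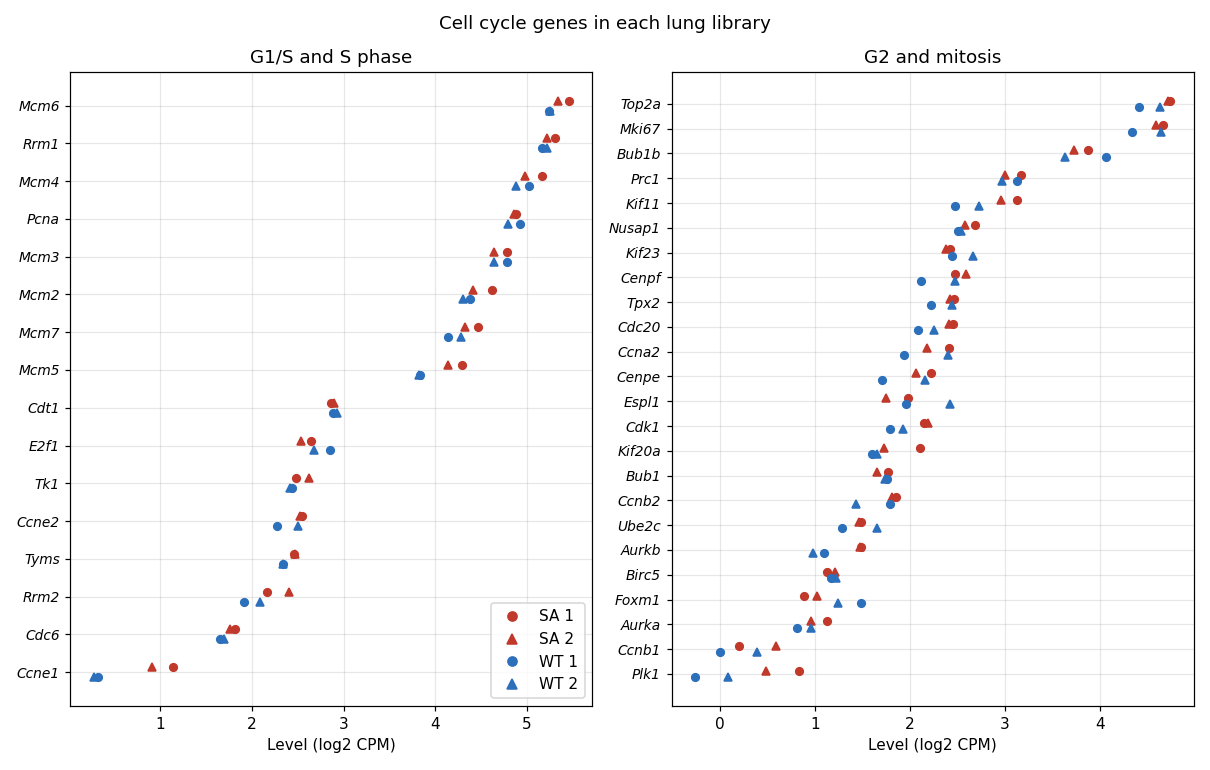
Level (log2 CPM) of each member in each of the 4 libraries, ordered by mean level, S phase genes on the left and mitotic genes on the right. Red marks SA and blue WT, circles replicate 1 and triangles replicate 2. Both red marks lie right of both blue ones for 21 members (52.5%), among them Mcm5, Ccne1, Plk1, Kif11 and Aurkb. For 3 members (7.5%) both lie left of them. Among all genes these shares were 38.1% and 21.7%.

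Among genes that commit a cell to S phase, Ccne1 showed the largest difference. It encodes cyclin E1, the partner of CDK2 at the G1/S transition (ENSMUSG00000002068, chromosome 7, 38097984 to 38107534, minus strand). Its level was 1.14 and 0.92 log2 CPM in SA 1 and SA 2, against 0.33 and 0.28 in WT 1 and WT 2, on 60 and 72 reads in SA and 38 in each WT library. The groups did not overlap, and the difference was 0.72 ± 0.21 (SE; 95% interval 0.17 to 1.28, adjusted p = 0.128). Ccne2, which encodes the other E cyclin, was at 2.54 and 2.52 in SA and at 2.28 and 2.50 in WT. E2f1, an activating E2F factor, was at 2.65 and 2.54 in SA and at 2.85 and 2.68 in WT. The difference was -0.17 ± 0.13 (95% interval -0.52 to 0.17, adjusted p = 0.44 in limma). E2f1 was the 1 member missing from the deposited filtered table, although its mean of 2.68 log2 CPM exceeded that of 25 members which the table keeps. Of the 11796 fitted genes at or above that mean, 499 were missing from the filtered table, E2f1 among them.

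Cdc6, Cdt1 and the genes for the MCM2-7 subunits differed by -0.0277 to 0.19 between genotypes, apart from Mcm5. Cdc6 and Cdt1 load the MCM complex onto origins. Cdc6 was at 1.82 and 1.77 in SA and 1.66 and 1.70 in WT, and Cdt1 at 2.86 and 2.90 in SA and 2.89 and 2.93 in WT. Mcm5, a subunit of the MCM2-7 helicase (ENSMUSG00000005410, chromosome 8, 75109569 to 75128439, plus strand), was at 4.29 and 4.14 log2 CPM in SA, against 3.84 and 3.82 in WT. The difference was 0.39 ± 0.09 (SE; 95% interval 0.14 to 0.63, adjusted p = 0.101), on 437 to 676 reads per library. It was 0.26 with median centring and 0.24 with quantile normalization. Mcm2 was at 4.62 and 4.41 in SA and 4.37 and 4.30 in WT. Mcm6 was at 5.45 and 5.34 in SA and 5.24 and 5.25 in WT, with an interval from -0.0329 to 0.34. Mcm7 differed by 0.19, Mcm4 by 0.12 and Mcm3 by -0.0036.

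The 6 helicase subunits are needed in equal number, yet their transcripts were not equally abundant per length. In RPKM, the CPM divided by the exon length in kilobases, Mcm4 was at 9.33 ± 0.85 in SA and 8.60 ± 0.56 in WT (SD, n = 2 each), and Mcm6 at 9.02 ± 0.49 in SA and 8.12 ± 0.04 in WT. Mcm2 was lowest of the 6, at 3.29 ± 0.34 RPKM in SA and 2.91 ± 0.10 in WT. The highest subunit exceeded the lowest by 2.81 and 2.86 times in SA libraries and by 3.02 and 2.89 times in WT libraries. The same lengths divided all 4 libraries, so agreement between libraries does not test this order. Mcm2 has the longest exon union of the 6, at 6956 bases. Before division by length Mcm5 and Mcm7 were lower, with means of 4.02 and 4.30 log2 CPM, against 4.43 for Mcm2. Per length, Mcm5 stood between, at 4.66 ± 0.35 RPKM in SA and 3.55 ± 0.03 in WT. Lengths are the union of all annotated exons in GENCODE M21, which lowers the value of genes with long rare transcripts.

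**Figure D4:**
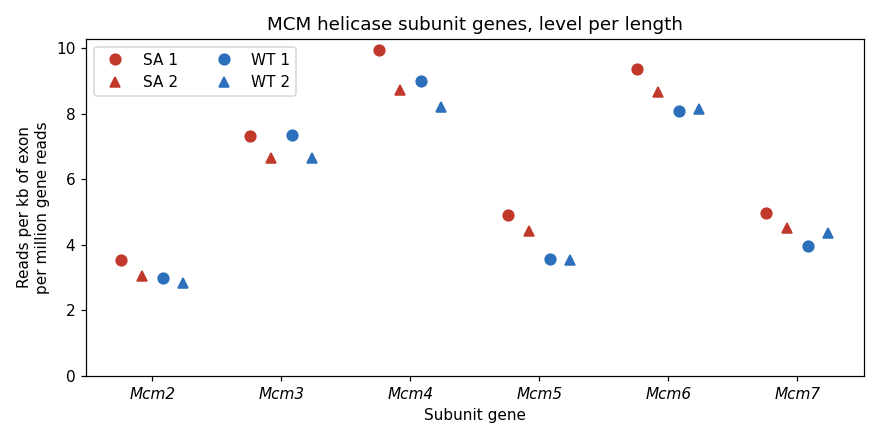
Level per length (RPKM) of the 6 MCM helicase subunit genes in each library, red for SA and blue for WT. Mcm4 and Mcm6 are the highest in every library and Mcm2 the lowest, and only Mcm5, Mcm2, Mcm6 and Mcm7 have both SA values above both WT values.

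Genes for the replication clamp and for nucleotide supply differed little. Pcna, the sliding clamp of DNA polymerases, was at 4.88 and 4.85 log2 CPM in SA and 4.92 and 4.79 in WT, and its interval ran from -0.19 to 0.22. It was the most abundant member per length, at 12.2 ± 0.18 RPKM in SA and 12.1 ± 0.74 in WT, and its reads can be shared with the pseudogene Pcna-ps2, which had 387 to 546 reads per library. Rrm1 and Rrm2 encode the ribonucleotide reductase subunits. Rrm2, the subunit that cycles with S phase, was at 2.16 and 2.41 in SA and 1.92 and 2.09 in WT, a difference of 0.28 ± 0.16 (adjusted p = 0.333), and Rrm1 differed by 0.0754. Tyms and Tk1, for thymidylate synthesis and salvage, each differed by 0.12.

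Of the markers most used for dividing cells, Mki67 overlapped between genotypes and Top2a did not, and neither passed the test. Mki67, which encodes the Ki-67 protein of proliferating cells, was at 4.67 and 4.59 log2 CPM in SA, against 4.34 and 4.64 in WT. The groups overlapped, because WT 2 lay between the SA libraries while WT 1 stood low, and the difference was 0.14 ± 0.12 (SE; 95% interval -0.19 to 0.47, adjusted p = 0.502). Top2a, the topoisomerase that untangles chromosomes, was at 4.74 and 4.72 in SA and 4.41 and 4.64 in WT, a difference of 0.20 ± 0.10 (adjusted p = 0.275). Both SA values of Top2a lay above both WT values, again with WT 1 lowest. These 2 genes had 619 to 1012 reads per library.

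Cyclins and kinases of mitotic entry differed by 0.13 to 0.74, without passing. Cdk1, the mitotic kinase, was at 2.15 and 2.18 log2 CPM in SA and 1.79 and 1.93 in WT, a difference of 0.31 ± 0.14 (adjusted p = 0.246). Its cyclins Ccnb1, Ccnb2 and Ccna2 differed by 0.20, 0.22 and 0.13, and Ccnb1 was at 0.20 and 0.58 in SA and at -0.0053 and 0.39 in WT on 30 to 57 reads. Ccnb2 had 98 and 134 reads in SA and 105 and 85 in WT. Its reads can be shared with the pseudogene Ccnb2-ps, which had 93 and 120 in SA and 64 and 73 in WT. Plk1 encodes a kinase of mitotic entry and spindle assembly (ENSMUSG00000030867, chromosome 7, 122159439 to 122169873, plus strand). It was at 0.82 and 0.48 in SA, against -0.26 and 0.08 in WT, on 48 and 53 reads in SA and 25 and 33 in WT. Both SA values exceeded both WT values, and the difference of 0.74 ± 0.27 (SE; 95% interval 0.0232 to 1.46) had an adjusted p of 0.181. Aurkb, the kinase of the chromosomal passenger complex, was at 1.48 and 1.47 in SA and 1.10 and 0.98 in WT (difference 0.44 ± 0.17, adjusted p = 0.195), while Birc5, for survivin of the same complex, differed by -0.0264. Aurka, a centrosomal kinase, differed by 0.16.

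Spindle motors and checkpoint genes were mixed. Kif11, the motor that separates spindle poles (ENSMUSG00000012443, chromosome 19, 37376403 to 37421859, plus strand), was at 3.12 and 2.95 log2 CPM in SA, against 2.48 and 2.73 in WT. The difference was 0.44 ± 0.15 (SE; 95% interval 0.0460 to 0.83, adjusted p = 0.161). Kif23, a motor of cytokinesis, lay the other way, at 2.42 and 2.38 in SA and 2.44 and 2.66 in WT. Kif20a, also of cytokinesis, differed by 0.29. The checkpoint kinase genes Bub1 and Bub1b differed by -0.0361 and -0.0481, and Cdc20, the checkpoint's target and an activator of the anaphase-promoting complex, by 0.27. Cenpe and Cenpf at the kinetochore differed by 0.21 and 0.24, and the spindle proteins Tpx2, Nusap1 and Prc1 by 0.11, 0.11 and 0.0365. Ube2c, the ubiquitin-conjugating enzyme of the anaphase-promoting complex, differed by 0.0026.

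Foxm1 and Espl1 were the mitotic members lowest in SA relative to WT. Foxm1, the transcription factor of the mitotic programme, was at 0.88 and 1.01 log2 CPM in SA and 1.48 and 1.24 in WT, on 50 and 77 reads in SA and 85 and 74 in WT. The groups did not overlap, and the difference was -0.41 ± 0.19 (SE; 95% interval -0.92 to 0.10, adjusted p = 0.256). Foxm1 was thus 1 of the 6 mitotic members below 0, with Espl1, Kif23, Bub1b, Bub1 and Birc5. The 18 above 0 included Plk1, Cdk1, Aurkb and Cdc20, and no member of either side passed. Espl1, which encodes separase, the protease that cuts cohesin at anaphase, was at 1.97 and 1.74 in SA and 1.95 and 2.42 in WT. Its groups overlapped, and the difference of -0.33 ± 0.22 (adjusted p = 0.393) was -0.56 without WT 1 and -0.0945 without WT 2.

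Securin, the inhibitor of separase, was the 1 gene on the cell cycle lists past the threshold in limma, and it was lower in SA. Pttg1 (ENSMUSG00000020415, chromosome 11, 43420250 to 43426251, minus strand) is outside the 40 members and was picked with its value known. It was at 3.34 and 3.07 log2 CPM in SA, against 5.12 and 4.97 in WT, on 276 and 321 reads in SA and 1061 and 990 in WT. The groups lay far apart, and the difference was -1.84 ± 0.13 (SE; 95% interval -2.18 to -1.50, adjusted p = 0.0417). The size of the difference varied between -1.98 and -1.71 when any 1 library was left out, with adjusted p-values of 0.0811 to 0.252, so the call needs all 4 libraries. Without the mean-variance trend the adjusted p was 0.0931. As deposited, 18 of the 24 mitotic members had differences above 0 and 6 below 0, where 62.0% of all genes had differences above 0. These signs depended on the scaling. Of the 40 members, 20 had differences above 0 and 20 below 0 with median centring. With quantile normalization the numbers were 16 and 24.

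The genes around the members held none past the threshold. Of 36 other replication genes 34 were fitted, with 0 past the limma threshold, 8 at an unadjusted p under 0.05 (all higher; 23.5%, against 16.8% of all genes), and a median difference of 0.18. Dut, which removes dUTP, differed by 0.44 ± 0.11 (adjusted p = 0.104) and Gmnn, for the licensing inhibitor geminin, by 0.44 ± 0.12 (adjusted p = 0.123). Of 57 other mitotic genes 46 were fitted, with 0 past that threshold, 5 at an unadjusted p under 0.05 (all higher; 10.9%, against the same 16.8%), and a median of 0.19. Nek2, a centrosomal kinase, was at 4.08 and 4.05 log2 CPM in SA, against 3.24 and 3.41 in WT, a difference of 0.74 ± 0.10 (adjusted p = 0.0557). It passed without a low-value filter (adjusted p = 0.00126), with a robust trend (0.0403) and with the replicate block (0.00916). Those settings called many more genes than the main fit, which called 26 higher and 22 lower. The counts were 1496 and 717 without a filter, 361 and 281 with a robust trend, and 2312 and 1211 with the block. Gtse1 differed by 0.75 ± 0.23 (adjusted p = 0.14).

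Among CDK inhibitors and G1 drivers the largest differences lay below 0. Of 7 CDK inhibitor genes 6 were fitted and 0 passed in limma. At an unadjusted p under 0.05 there were 1 higher (16.7%) and 1 lower. The same threshold took 16.8% of all genes upward and 9.56% downward. Cdkn1a, which encodes p21, was at 5.22 and 5.77 log2 CPM in SA, against 6.55 and 6.75 in WT, with no overlap. The difference of -1.15 ± 0.20 (SE; adjusted p = 0.0701) did not pass, except with median centring, where it was -1.29 (adjusted p = 0.0451), in the fit without a low-value filter and in the fit that blocks on replicate number. Cdkn1b, for p27, differed by 0.18 ± 0.06 (adjusted p = 0.162). Of 11 genes for G1 cyclins and kinases 0 passed in limma. At an unadjusted p under 0.05 there were 1 higher (9.09%) and 2 lower, beside the same shares of all genes. Cdk6 and Cdk4, for the kinases that pair with D cyclins, lay on opposite sides. Cdk6 was at 5.92 and 5.79 in SA, against 6.47 and 6.37 in WT (difference -0.57 ± 0.08, adjusted p = 0.0541). It passed without a low-value filter (adjusted p = 0.00163), with median centring (0.0458), with a robust trend (0.0389) and with the replicate block (0.00443). These settings, which include those under which Cdkn1a passed, called many more genes than the main fit. Median centring called 210 higher and 393 lower, against 26 and 22 in the main fit. Cdk4 differed by 0.20 ± 0.06 (adjusted p = 0.132).

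Among pocket proteins, E2F factors and the MuvB complex 17 of 18 genes were fitted and 0 passed in limma, with a median of 0.10. At an unadjusted p under 0.05 there were 2 higher (11.8%) and 1 lower. The same threshold took 16.8% of all genes upward and 9.56% downward. Lin9, a MuvB subunit, differed by 0.50 ± 0.11 (adjusted p = 0.0915) and E2f6, a repressive E2F, by 0.30 ± 0.09 (adjusted p = 0.13). The 15 genes listed for the anaphase-promoting complex and the exit from mitosis had a median of 0.05, with 0 past the threshold in limma. At an unadjusted p under 0.05 there was 1 in each direction (6.67% higher), beside the same shares of all genes. These were the subunit genes Anapc13 at 0.31 and Anapc1 at -0.17. The 9 antiproliferative and quiescence genes had a median of -0.20, with 0 past the threshold and 0 at an unadjusted p under 0.05 in limma; Btg2 differed by -0.30 and Gas1 by 0.28.

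Replication-dependent histone mRNAs, which lack a poly(A) tail and peak in S phase, could be measured because the libraries were made from total RNA depleted of ribosomal RNA. Of 64 genes 40 were fitted, with 0 past the limma threshold and a median difference of 0.14. At an unadjusted p under 0.05 there was 1, higher in SA (2.5%, against 16.8% of all genes). Their mean level was 3.08 and 2.78 log2 CPM in SA 1 and SA 2, against 2.72 and 2.83 in WT 1 and WT 2, so SA 1 stood above SA 2 and the WT libraries. Only 3 of the 40 were higher in SA 2 than in SA 1. Hist3h2a differed by 0.83 ± 0.20 (adjusted p = 0.104) and Hist1h2bm by 0.52 ± 0.21 (adjusted p = 0.216). Reads of these genes can be shared between near-identical copies.

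**Figure D5:**
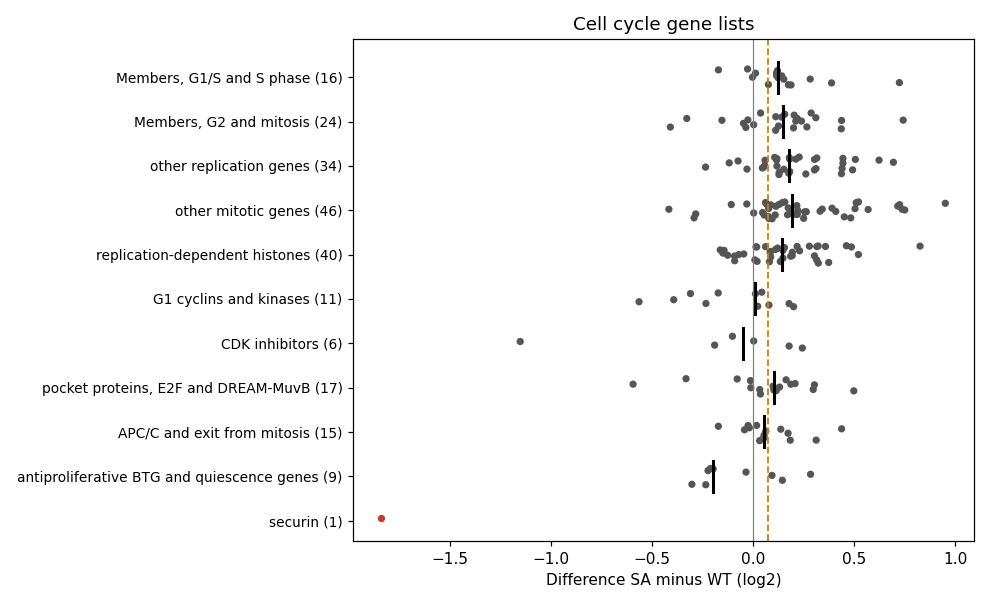
Difference SA minus WT (log2) of each fitted gene in 11 cell cycle gene lists, with black bars for medians, a dashed line for the median of all genes fitted (0.07), and the number of fitted genes in brackets. Securin at -1.84, in red, is the 1 gene past the threshold.

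For 5 members over 10% of the exon bases lie opposite the exons of another gene, and nothing used here says whether the counting was stranded, so reads of such pairs cannot be told apart. These were Kif20a with Cdc23 (29.3%), Ube2c with Tnnc2 (22.8%), Ccne2 with Ints8 (17.4%), Ccna2 with Exosc9 (12.5%) and Prc1 with Rccd1 (11.1%). Tnnc2, a troponin gene of fast muscle, had 15 and 27 reads in SA and 6 in each WT library, against 76 and 105 reads of Ube2c in SA and 74 and 99 in WT.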

How the data were processed

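Total RNA of lung was sequenced after removal of ribosomal RNA with a strand-specific kit, per the labels' protocols. Per the submitters' processing notes, reads were handled with Subread and featureCounts on GRCm38, and limma was used; neither versions nor an annotation release are given in the sources used here. The authors deposited 2 tables of log2 CPM values, one filtered and one unfiltered, with equal values for shared genes. From the values, each is the log2 of the CPM after 0.5 read was added; reversing that step returned read numbers that were whole within 0.001 read for 100% of genes. Repeated Ensembl IDs were kept once.

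The genotypes (SA against WT) were fitted on the unfiltered table with limma 3.58.1 in R 4.3.3, for the 15996 genes with a mean of at least 0 log2 CPM over all 4 libraries, with genotype as the only term, a mean-variance trend, two-sided tests, Benjamini-Hochberg adjustment and a threshold of 0.05. The fit had 2 residual and 2.42 prior degrees of freedom, and the script was tested on simulated data. The unfiltered table was used because E2f1 is missing from the filtered one. The members and lists were chosen with earlier results of these data known, so the lists are described by counts and medians without a test. All members were given a difference. Library values were printed for a fixed set of members and for the 5 of each phase with the largest absolute difference at a mean of at least 1 log2 CPM, and the 2 genes with the lowest p were named for each other list; library values of other genes were added after they were seen. Exon lengths came from GENCODE M21 and promoters from RefSeq, both on GRCm38. Python 3.11.15 and pandas 2.3.3 did the remaining steps. Alternatives were the filtered table, no filter, a higher filter, 2 other scalings, 2 reads added, other limma settings, voom, the replicate number as a block, and leaving out each library.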

Additional observations from a re-analysis of the deposited data

How the results depend on the processing

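No member passed the threshold under any alternative except Mcm5, the 1 member higher in SA with the replicate block (adjusted p = 0.0335). The labels do not say that equal replicate numbers mark a shared litter or day, so what the number stands for is not known. Over 15996 genes the steps between replicates of SA and of WT correlated at 0.525. The counts of all genes past the threshold (26 higher and 22 lower) were 2312 and 1211 with the replicate block, 1496 and 717 without a filter, 210 and 393 with median centring, 114 and 170 with quantile normalization, 361 and 281 with a robust trend and 1 and 0 without a trend; voom with library totals gave 10 lower. Leaving out a library gave 0 to 5 higher and 0 to 0 lower (2215 to 3386 genes at an unadjusted p under 0.05 in limma).

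The median difference of the S phase members was -0.0115 with median centring, -0.0355 with quantile normalization and 0.067 with voom scaled by the median of ratios, and 0.093 to 0.1462 with a library left out. That of the mitotic members was 0.0157 with median centring and -0.0731 with quantile normalization, and 0.0701 to 0.262 with a library left out. Of the 40 members 22 changed sign under some alternative, all with differences of -0.0481 to 0.24 as deposited. Median centring lowers every difference by 0.133, so the members that it turned were those between 0 and 0.133, namely Cdc6 -0.0175, Mcm4 -0.0172, Pcna -0.1215, Rrm1 -0.0576, Tyms -0.0129, Tk1 -0.0101, Ccna2 -0.0078, Tpx2 -0.0219, Nusap1 -0.0212, Prc1 -0.0965 and Ube2c -0.1304. With quantile normalization, for which the cause was not tested, they were Ccne2 -0.1089, Cdc6 -0.1253, Pcna -0.0811, Tyms -0.1174, Tk1 -0.1173, Ccna2 -0.1282, Ccnb1 -0.0660, Ccnb2 -0.0222, Aurka -0.0803, Cenpe -0.0394, Cenpf -0.0140, Tpx2 -0.1299, Nusap1 -0.1493, Prc1 -0.1661 and Ube2c -0.2447. With voom scaled by the median of ratios they were Pcna -0.0486, Prc1 -0.0328 and Ube2c -0.0601, and with voom and library totals Ube2c -0.0010. With a library left out the ranges that cross 0 were Mcm3 (-0.0753 to 0.0680), Pcna (-0.0509 to 0.0738), Mki67 (-0.0090 to 0.2911), Ccna2 (-0.1023 to 0.3526), Bub1 (-0.0967 to 0.0244), Bub1b (-0.2616 to 0.1655), Cenpe (-0.0191 to 0.4411), Prc1 (-0.0499 to 0.1229), Birc5 (-0.0692 to 0.0165) and Ube2c (-0.1822 to 0.1874).

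Outside the members, 5 genes named in the text gained a call without a filter, 2 with median centring, 2 with a robust trend and 6 with the replicate block, among them Lin9, Hist3h2a and, with the block alone, Dut.

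Depth limits the rarest members: Plk1, Ccnb1 and Ccne1 had 25 to 72 reads per library. E2f1 has no value in the filtered table, and 36 members were fitted at a mean of at least 1 log2 CPM.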
